A study of Mus musculus with 6 samples.

Results

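The genes examined here are 10 that carry out antigen presentation by MHC class I molecules, the surface proteins that show fragments of a cell's own proteins to cytotoxic T cells. They were chosen by name from the 54532 genes of the deposited table and fall into 5 roles. H2-K1 and H2-D1 encode the classical class I heavy chains of the mouse, and B2m encodes β2-microglobulin, the light chain that every heavy chain needs to fold and reach the surface. Tap1 and Tap2 form the transporter that moves peptides into the endoplasmic reticulum, and Tapbp encodes tapasin, which holds empty class I molecules beside that transporter. Psmb8, Psmb9 and Psmb10 encode the inducible catalytic subunits of the immunoproteasome, which cuts proteins into peptides, and Nlrc5 encodes a transactivator of class I genes. All 10 genes were found in the table, and all 10 passed the filter on low values, a mean FPKM of 1 or more. FPKM is a count of sequenced fragments divided by gene length and by a measure of library depth.

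RNA-seq was performed on peritoneal macrophages in 3 groups of 2 libraries each. All libraries came from wild-type (WT) cells, which the labels list as a cell line named peritoneal macrophage and which, by the study's methods, were elicited with 3% thioglycolate and collected 5 days later from male C57BL/6J mice of 6 to 8 weeks, the strain of the mouse reference genome. Control cells received no treatment. Model cells received LPS, a bacterial cell wall component, at 500 ng/mL for 5.5 h and then ATP at 2 mM for 0.5 h, the standard way to prime and then trigger the NLRP3 inflammasome. MUS cells were given LPS and ATP in the same way, and in addition muscone, a macrocyclic ketone of musk, at 50 μM from 0.5 h before ATP. The question put to the comparisons was how LPS + ATP, and muscone given after priming, changed the transcripts of this pathway. Nothing in the labels or methods says whether the libraries of a group come from separate animals or cultures, so p-values measure only the spread between these libraries.

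In most cells a basal level of class I molecules is present at all times. Interferons and NF-κB signaling raise it through interferon-stimulated response elements (ISRE), NF-κB sites and the CCAAT-containing SXY module on which Nlrc5 acts. Macrophages stimulated with LPS make type I interferon, and exchange of the constitutive catalytic subunits Psmb6, Psmb7 and Psmb5 for Psmb9, Psmb10 and Psmb8 turns the proteasome into the immunoproteasome.

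H2-K1 (chromosome 17, 33996017 to 34000333, minus strand) and H2-D1 (chromosome 17, 35262730 to 35267499, plus strand) lie in the major histocompatibility complex of build GRCm38. Tapbp (33915899 to 33929288, plus strand) lies there too. Psmb9 (minus strand), Tap1, Psmb8 and Tap2 (all plus strand) are neighbours on chromosome 17, where the 4 genes together span 34334 bases from 34181988 to 34216321. Outside chromosome 17, B2m lies on chromosome 2 (122147686 to 122153083, plus strand), and Psmb10 (105935735 to 105938444, minus strand) and Nlrc5 (94434356 to 94527272, plus strand) lie on chromosome 8. Psmb9 and Tap1 run in opposite directions and share 212 exon bases, 5.79% of those of Psmb9 and 3.87% of those of Tap1. The library protocol names no strand marking, so fragments from that stretch cannot be assigned to one of the pair. The same holds for 24.9% of the exon bases of Tapbp, which an antisense gene, Gm19412, shares, for 14.7% of Psmb8 (Gm20496) and for 14.1% of Tap2 (Gm15821). Of the 50-base stretches in H2-K1 and H2-D1 transcripts, 9.63% and 12.8% also occur in transcripts of other genes, most often another class I gene (H2-Q10 and H2-Q1), whereas B2m and Psmb10 share none.

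The proximal promoters were read because class I genes are known to share control elements. RefSeq promoters (GRCm38.p6) were available for 8 of the 10 genes, and the 250 bases before each start were searched on both strands. The motifs were ISRE (GAAANNGAAA), CCAAT and the NF-κB consensus, which occur in 2.98%, 33.8% and 7.25% of 32851 promoters of the same length. An ISRE or NF-κB match was found in 3 of the 8 genes (B2m, H2-K1 and H2-D1) and a CCAAT match in 6 (all but Psmb8 and Psmb10). A gene without a match lacks only these letters in this window. For Tapbp, Psmb9, Tap1, Psmb8 and H2-D1 all 250 bases lie inside annotated exons, of the gene itself or of a neighbour. The B2m stretch (chr2:122147527-122147646, plus strand) and the H2-K1 stretch (chr17:34000348-34000477, minus strand) are shown first because they hold elements of several kinds within a short distance, written 5′ to 3′ with the matches in capitals. In B2m the capitals mark an ISRE, an NF-κB match on the other strand and a CCAAT match on the other strand, in this order. In H2-K1 they mark a stretch with 2 overlapping NF-κB matches and a CCAAT match on the other strand.
B2m: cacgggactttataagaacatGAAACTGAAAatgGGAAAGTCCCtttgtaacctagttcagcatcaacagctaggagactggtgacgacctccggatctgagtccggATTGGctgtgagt
H2-K1: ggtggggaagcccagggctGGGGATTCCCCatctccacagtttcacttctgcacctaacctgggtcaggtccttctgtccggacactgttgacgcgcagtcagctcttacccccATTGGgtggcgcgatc

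Sites of 30 bases are shown for the NF-κB matches of H2-K1, again, and H2-D1, and for a CCAAT match of Tap1. The H2-K1 site (chr17:34000438-34000467, minus strand) and the H2-D1 site (chr17:35262914-35262943, plus strand) carry the NF-κB matches in capitals and are identical at 29 of 30 bases. The H2-D1 site lies inside exons that the annotation gives to longer transcripts of H2-D1. The Tap1 site lies inside exons of Psmb9 and before the annotated start of Tap1.
H2-K1: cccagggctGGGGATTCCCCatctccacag
H2-D1: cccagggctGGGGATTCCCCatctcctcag
The Tap1 site (chr17:34187321-34187350, plus strand) holds a CCAAT match at 34187334 to 34187338 that is also in the Psmb9 window, since the RefSeq starts of the divergent pair are 226 bases apart.
Tap1: ggggctcggctttCCAATcagcggctgcgc

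The libraries held between 15526321 and 17135442 fragments on genes, recovered from FPKM and gene length, and the least covered of the 10 genes in any library was Tap2 with 347 fragments. The depth scale behind the FPKM was 1.45 and 1.34 times the fragment total in the Control libraries and between 0.909 and 0.998 times in the other 4 libraries, so that scaling to the fragment total shifts the median of all genes in Model vs. Control from 0.04 to -0.40 on the log2 scale. Model replicate 1 stood apart by its 24906 genes with a fragment, against 17406 to 19200 in the other libraries. The summed FPKM of 8 macrophage markers was between 9574 and 14283, most of it Lyz2 (7275 to 12007). Other macrophage markers differed between Control and Model in either direction, Csf1r with means of 240.3 and 92.0 FPKM and Cd14 and Fcgr1 with 266 and 1448 and with 13.1 and 154. For 8 T and NK cell markers it was between 0.301 and 0.541 in the Control libraries, 1.54 and 4.51 in the Model libraries and 2.15 and 2.79 in the MUS libraries, with Lck as the largest part in Model and MUS and with Cd3d, Cd3e and Cd3g under 0.1 in every library. For 8 neutrophil markers it was 13.8 and 30.9 in the Control libraries, 112 and 57.7 in the Model libraries and 64.6 and 50.8 in the MUS libraries, nearly all of it S100a8, while S100a9, Ly6g and Elane are listed at 0 in all libraries. The eosinophil sum was 4.17 and 2.78 in the Control libraries, 1.95 and 1.42 in the Model libraries and 1.63 and 1.60 in the MUS libraries, most of it Siglecf, with Epx and Prg2 listed at 0. The sums of the dendritic cell and mast cell lists stayed below 5, and those of B cells and of mesothelial cells and fibroblasts lay between 3.93 and 16.9. The sums of B cell, dendritic cell and mast cell markers were also higher in both Model libraries than in both Control libraries. The part in the results of these lists that move with the groups was not tested. In these bulk samples, fewer cells of a type and less RNA per cell cannot be told apart.

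The 10 genes covered a wide range of levels per length. B2m was the highest in every library and H2-D1, H2-K1, Tapbp and Psmb10 followed in this order in every library. B2m ranked between 4 and 7 among all genes of the table, whereas Nlrc5 ranked 7695 and 3361 in the Control libraries. Below Psmb10, Tap1 was the highest in every library, and the order of Psmb8, Tap2, Psmb9 and Nlrc5 differed between libraries. Psmb10 and Tap1 overlapped in MUS (73.6 and 109.9 against 71.0 and 100.2 FPKM) but not in Control or Model.

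**Figure D1:**
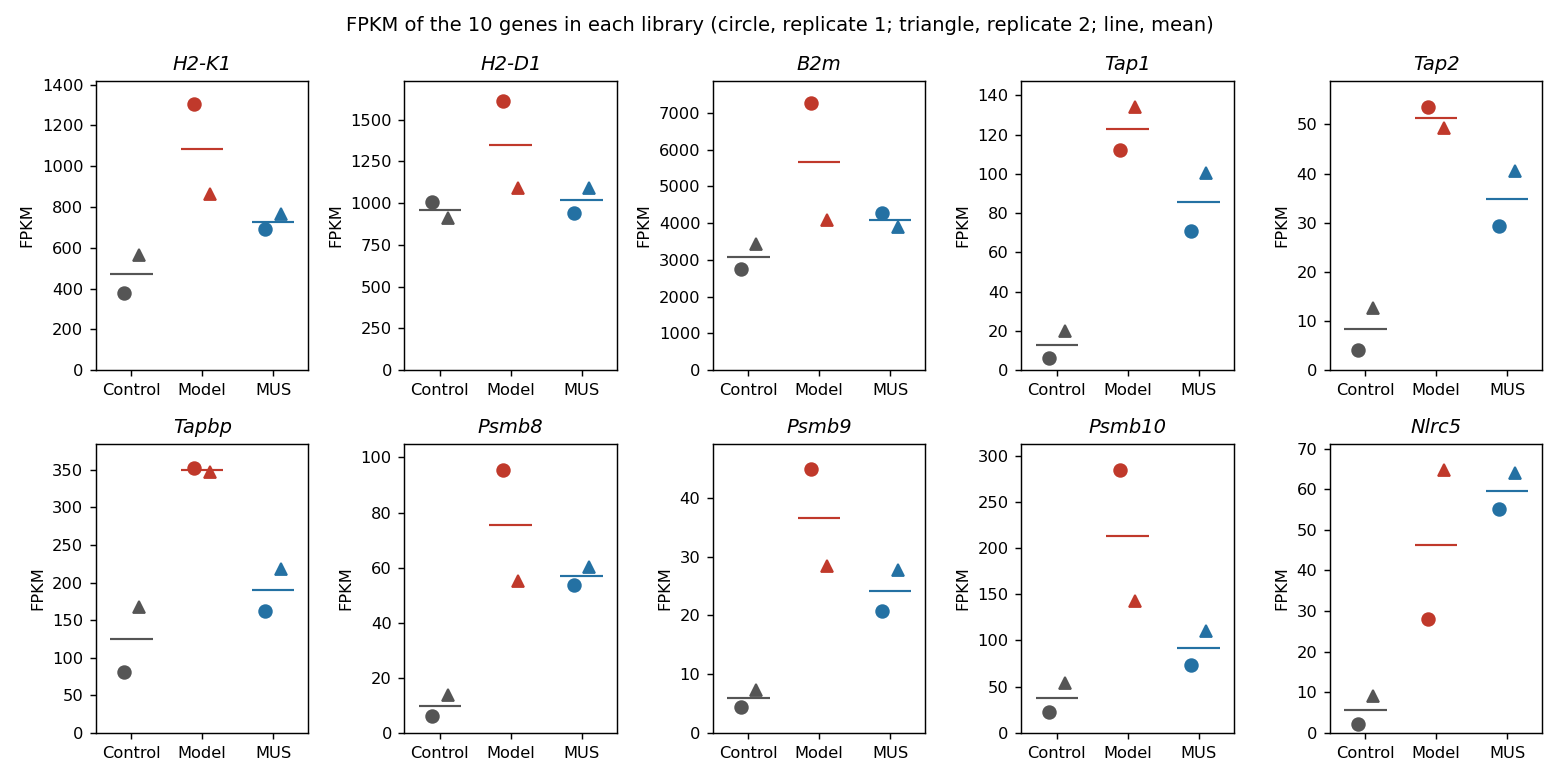
FPKM of each of the 10 genes (vertical axis, linear from 0) in Control (grey), Model (red) and MUS (blue), with replicate 1 as a circle, replicate 2 as a triangle and the group mean as a line. On this deposited scale, both Model libraries lie above both Control libraries for all 10 genes. The Model libraries of B2m (7268 and 4076 FPKM) and Psmb10 (285 and 142 FPKM) are far apart.

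Among the heavy and light chains, no gene passed the test in Model vs. Control. On the deposited scale, both Model libraries were nevertheless above both Control libraries for each of them. H2-K1 had 380 and 565 FPKM in the Control libraries, 1304 and 865 in the Model libraries and 690.3 and 767 in the MUS libraries. The order of the groups was Control, MUS, Model without overlap. In Model vs. Control H2-K1 differed by 1.19 (SE 0.41) on the log2(FPKM + 1) scale, with a limma adjusted p of 0.0876. H2-D1 had 1009.7 and 914 FPKM in the Control libraries, 1614 and 1088 in the Model libraries and 943 and 1091 in the MUS libraries. One Model library of H2-D1 was thus close to its Control libraries, and the difference was 0.46 (SE 0.39, limma adjusted p = 0.434). Its sign turned when libraries were scaled to their fragment totals (-0.08). B2m had 2763 and 3424 FPKM in the Control libraries, 7268 and 4076 in the Model libraries and 4272 and 3892 in the MUS libraries. Model replicate 1 stood alone at the top for B2m, and the difference of 0.82 (SE 0.46) had a limma adjusted p of 0.248.

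The ratio of H2-K1 to H2-D1 within a library does not depend on how the library was scaled, and it was looked at after the values were seen. It was 0.376 and 0.619 in the Control libraries, 0.808 and 0.795 in the Model libraries and 0.732 and 0.703 in the MUS libraries. The 4 stimulated libraries were above both Control libraries, by 0.73 on the log2 scale in Model vs. Control, which was 0.37 without Control replicate 1 and 1.09 without Control replicate 2. An exact two-sided permutation test of 2 against 2 libraries cannot give a p below 0.333, which was the p here. Both genes carry the NF-κB matches printed above.

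Genes of peptide transport and loading were upregulated in Model vs. Control. Tap1 had 6.33 and 19.8 FPKM in the Control libraries, 112 and 134 in the Model libraries and 71.0 and 100.2 in the MUS libraries. The groups did not overlap, and the mean of Model was 9.42 times that of Control. Tap1 had the largest log2 fold change of the 10 genes, 3.32 (SE 0.50, limma adjusted p = 0.00742). Tap2, its partner in the transporter, had 4.01 and 12.7 FPKM in the Control libraries, 53.6 and 49.2 in the Model libraries and 29.3 and 40.6 in the MUS libraries, and its log2 fold change was 2.66 (SE 0.47, limma adjusted p = 0.0123). As for Tap1, the 3 groups of Tap2 did not overlap and MUS lay between Control and Model. Tapbp had 81.6 and 168 FPKM in the Control libraries, 353 and 347 in the Model libraries and 163 and 218 in the MUS libraries. Its Model libraries were nearly equal while its Control libraries differed by 2.05 times, and the log2 fold change of 1.57 (SE 0.42) passed the test narrowly, with a limma adjusted p of 0.0456. Scaled to the fragment total, Tapbp differed by 1.03 with an adjusted p of 0.0870 and was not called.

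The 3 immunoproteasome subunits were upregulated together. Psmb8 had 5.99 and 13.8 FPKM in the Control libraries, 95.5 and 55.2 in the Model libraries and 53.7 and 60.2 in the MUS libraries. Psmb8 was below 14 FPKM in both Control libraries and above 53 in the other 4. Model vs. Control gave it a log2 fold change of 2.85 (SE 0.43, limma adjusted p = 0.00779). Psmb9 had 4.41 and 7.35 FPKM in the Control libraries, 44.8 and 28.3 in the Model libraries and 20.7 and 27.7 in the MUS libraries. The groups of Psmb9 did not overlap, and its log2 fold change of 2.45 (SE 0.35) had the lowest adjusted p of the 10 genes, 0.00625 with limma. Psmb10 had 22.3 and 53.7 FPKM in the Control libraries, 285 and 142 in the Model libraries and 73.6 and 109.9 in the MUS libraries. Its Model libraries differed by 2.00 times, and its log2 fold change was 2.50 (SE 0.53, limma adjusted p = 0.0219).

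Nlrc5, the transactivator, was upregulated as well. It had 2.15 and 8.99 FPKM in the Control libraries, 28.0 and 64.7 in the Model libraries and 55.1 and 64.0 in the MUS libraries. Both its Control libraries and its Model libraries were far apart, by 4.17 and 2.31 times, but no Control library reached a Model library. The log2 fold change was 2.96 (SE 0.59, limma adjusted p = 0.0187). It was the only one of the 10 genes whose mean was higher in MUS than in Model.

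Over all roles, LPS + ATP upregulated 7 of the 10 genes as DEGs (a limma adjusted p no higher than 0.05 with a log2 fold change beyond 1 in size) and downregulated none, against 9.5% of the 9794 genes tested that were upregulated and 15.1% that were DEGs in either direction. On the deposited FPKM scale, both Model libraries were above both Control libraries for all 10 genes, against 32.6% of the genes tested. In recovered fragments, before any adjustment for depth, H2-D1 and B2m overlapped. H2-D1 had 59543 and 53913 fragments in the Control libraries and 58729 and 43475 in the Model libraries. B2m had 54337 and 67368 in the Control libraries and 88216 and 54307 in the Model libraries. The median log2 fold change of the 10 genes was 2.48, and that of all genes tested was 0.04. Within replicate 1, which the labels call batch 1, the 7 upregulated genes differed by 2.10 (Tapbp) to 3.95 (Tap1) on the log2 scale, and within batch 2 by 1.05 (Tapbp) to 2.72 (Nlrc5). On the deposited scale, every one of the 10 genes was higher in Model within both batches, with H2-D1 and B2m at 0.25 each in batch 2. With libraries scaled to their fragment totals, Tap1, Tap2, Psmb8, Psmb9, Psmb10 and Nlrc5 stayed DEGs at log2 fold changes of 1.97 to 2.82. The scale of the log2(FPKM + 1) values understates the change of genes with low values, such as Nlrc5 in Control. The count of 7 became 4 without Control replicate 1, without Model replicate 1 or without Model replicate 2, where the DEGs among all 9794 genes fell from 1475 to 763, 692 and 1227. It became 0 with no filter on low values, where 260 of 30192 genes tested were DEGs.

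**Figure D2:**
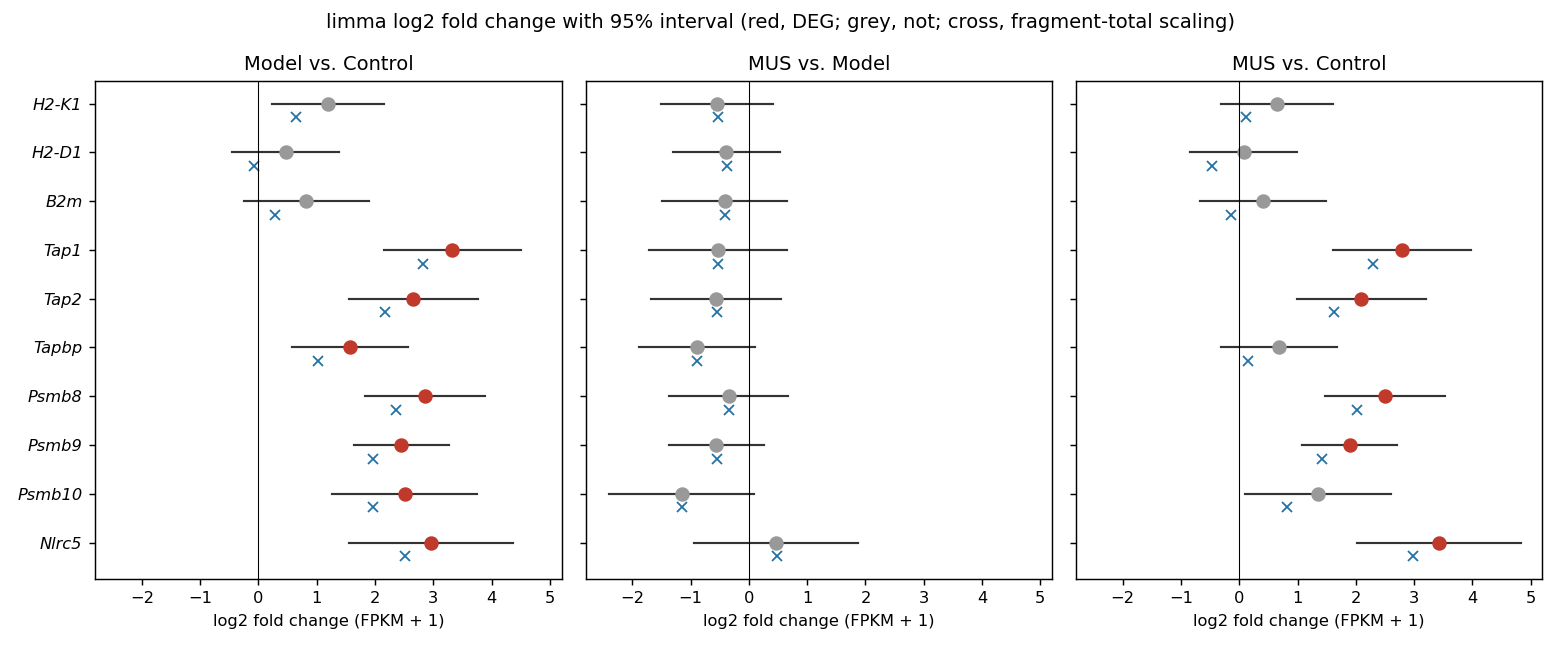
Log2 fold change (horizontal axis, on log2(FPKM + 1)) of each gene in Model vs. Control, MUS vs. Model and MUS vs. Control, as points with 95% limma intervals, red for DEGs and grey for the rest, and crosses for the value with libraries scaled to their fragment totals. In Model vs. Control 7 points are red, in MUS vs. Model none is and only Nlrc5 (0.47) lies right of 0, and in MUS vs. Control 5 are red.

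Muscone added to LPS + ATP (MUS vs. Model) gave 0 DEGs with limma among the 10 genes and 0 among all 9794 tested. Before adjustment, p was under 0.05 for 825 genes tested (256 higher and 569 lower in MUS), 8.42%, but for 0 of the 10 genes, and voom on the recovered fragments also gave 0 DEGs. The log2 fold change was below 0 for 9 of the 10 genes, against 48.7% of all genes tested, and their median was -0.54 against 0.01. For 6 of the 10 genes (H2-K1, Tap1, Tap2, Tapbp, Psmb9 and Psmb10) both MUS libraries were below both Model libraries, against 21.0% of the genes tested. For all 10 genes the difference was larger in size within batch 1 than within batch 2. It was -1.08 and -0.03 for Psmb9, -0.92 and -0.17 for H2-K1, -0.85 and -0.27 for Tap2 and -0.65 and -0.41 for Tap1. For H2-D1 (-0.77 and 0.004) and Psmb8 (-0.82 and 0.12) the batches differed in sign. Psmb10 had the largest difference, -1.15, with a 95% interval from -2.40 to 0.09 and a limma adjusted p of 0.629. The difference of Psmb10 was -1.94 within batch 1 and -0.37 within batch 2. Tapbp differed by -0.89 (95% interval -1.89 to 0.11, limma adjusted p = 0.648), with -1.11 and -0.67 within the batches. Nlrc5 differed by 0.47, with an interval from -0.94 to 1.87 and with 0.95 and -0.02 within the batches. Without Model replicate 1, B2m (0.00059), Psmb8 (0.04) and Nlrc5 (-0.12) changed sign. The intervals leave room for differences in either direction for all 10 genes.

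In MUS vs. Control, 5 genes were DEGs and upregulated, against 11.3% of the genes tested that were upregulated and 20.2% that were DEGs in either direction. They were Nlrc5 (log2 fold change 3.43, SE 0.59, limma adjusted p = 0.00917), Tap1 (2.79, SE 0.50), Psmb8 (2.51, SE 0.43), Tap2 (2.10, SE 0.47) and Psmb9 (1.89, SE 0.35, limma adjusted p = 0.0106). Psmb10 differed by 1.35 (SE 0.53) without passing, at a limma adjusted p of 0.103. Tapbp (0.68), H2-K1 (0.65), B2m (0.41) and H2-D1 (0.08) did not pass either. On the deposited scale, both MUS libraries were above both Control libraries for 8 of the 10 genes, against 39.6% of the genes tested. The exceptions were H2-D1 and Tapbp. The count of 5 became 0 without MUS replicate 1, without MUS replicate 2 and with no filter on low values, where the DEGs among all genes tested fell from 1980 to 184, 719 and 456. This comparison shares its Control libraries with Model vs. Control and its MUS libraries with MUS vs. Model.

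For the catalytic subunits, transcripts of each immunoproteasome subunit were set as a ratio to those of the constitutive subunit whose place it takes. These are ratios of RNA, and the exchange of subunits in the proteasome itself was not measured. The ratio of Psmb8 to Psmb5 was 0.141 and 0.138 in the Control libraries, 0.396 and 0.496 in the Model libraries and 0.647 and 0.609 in the MUS libraries. It was higher in Model than in Control by 1.67 on the log2 scale. In MUS it was higher still, by 0.50 over Model, without overlap of the libraries. That difference of MUS and Model was 0.34 without Model replicate 1 and 0.66 without Model replicate 2. The Model replicates differed with gene length, as described below, and the part of this in this ratio and in the other ratios was not tested. The ratio of Psmb9 to Psmb6 was 0.0821 and 0.110 in the Control libraries, 0.304 and 0.343 in the Model libraries and 0.194 and 0.269 in the MUS libraries. It was higher in Model than in Control by 1.76 and lower in MUS than in Model by 0.50, with all groups apart. Without MUS replicate 1 the difference of MUS and Model was -0.26, and without MUS replicate 2 it was -0.74. The ratio of Psmb10 to Psmb7 was 3.18 and 5.61 in the Control libraries, 12.9 and 11.0 in the Model libraries and 5.40 and 7.98 in the MUS libraries. Here Model was above Control by 1.49, and MUS was 0.86 below Model and overlapped with Control. Psmb5 itself had 42.7 and 99.9 FPKM in the Control libraries, 241 and 111 in the Model libraries and 83.0 and 98.8 in the MUS libraries, so that in MUS vs. Model Psmb5 differed by -0.85 and Psmb8 by -0.35. In exact two-sided permutation tests, 8 of the 9 comparisons of these ratios gave the smallest possible p of 0.333 (0.375 after Benjamini-Hochberg adjustment) and Psmb10 to Psmb7 in MUS vs. Control gave 0.667, so 2 libraries per group cannot pass a threshold of 0.05 here.

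**Figure D3:**
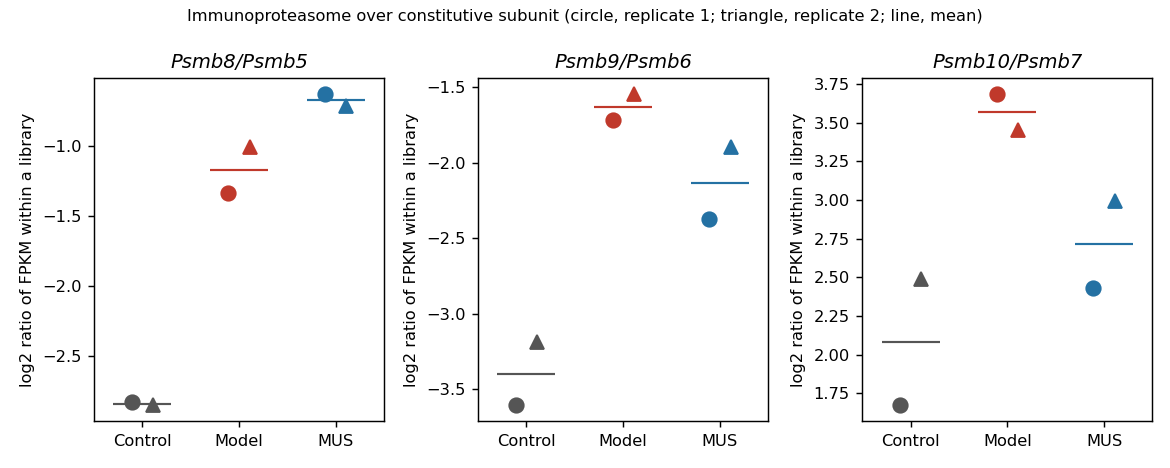
Log2 ratio of FPKM within a library (vertical axis, a separate scale in each panel that does not start at 0) for Psmb8/Psmb5, Psmb9/Psmb6 and Psmb10/Psmb7 in Control, Model and MUS, with replicate 1 as a circle, replicate 2 as a triangle and the mean as a line. All 3 ratios are higher in Model than in Control, and MUS lies above Model for Psmb8/Psmb5 (0.647 and 0.609 against 0.396 and 0.496) but below it for the other pairs.

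Other genes of the pathway were counted in 6 lists with 57 symbols, of which 56 were in the table and 45 passed the filter on low values. In Model vs. Control 14 of the 45 were DEGs, all upregulated, against 9.5% of all genes tested. The median of the 45 was 0.87. The other class I genes accounted for 8 of these DEGs among 10 tested, with a median of 2.00. They were H2-T22 (2.47), H2-Q4 (2.24), H2-Q7 (2.11), H2-T24 (2.08), H2-Q6 (2.07), H2-T10 (1.94), H2-M3 (1.62) and H2-T23 (1.35), which encode nonclassical class I heavy chains. H2-T22 had 9.88 and 11.6 FPKM in the Control libraries, 65.3 and 62.3 in the Model libraries and 64.3 and 67.9 in the MUS libraries. In Model its libraries were nearer to each other than those of H2-K1 and H2-D1. Some of the nonclassical genes are near copies of each other (H2-Q6 and H2-Q7, H2-T10 and H2-T22), so the split of fragments between them is uncertain. H2-M2 (1.62) was not called, and its Control libraries were at 3.07 and 33.2 FPKM. Of the genes with a class I fold and other roles (Cd1d1, Fcgrt and Hfe) none was called, with a median of -0.06.

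Chaperones and helpers of peptide loading were not called. None of the 7 genes tested (Calr, Canx, Pdia3, Tapbpl, Erap1, Hspa5 and Sec61a1) was a DEG, and their median was 0.09. Tapbpl, a relative of tapasin that edits peptides, had the largest value, 1.33 (SE 0.41, limma adjusted p = 0.0669). Hspa5 followed at 1.04 (limma adjusted p = 0.0642). Pdia3, the oxidoreductase bound to tapasin, had the lowest value, -0.67. Among the 7 proteasome partners tested, Psme2 (3.44, SE 0.58, limma adjusted p = 0.0105) and Psme1 (1.68) were upregulated, and the median was 1.30. They encode the PA28 activator, which caps the proteasome and eases the release of peptides. Psme2 had 10.8 and 32.6 FPKM in the Control libraries, 315 and 148 in the Model libraries and 127 and 173 in the MUS libraries. Its spread between the Model libraries resembles that of Psmb10. The constitutive subunits Psmb5 (1.31), Psmb7 (0.97) and Psmb6 (0.87) were not called. Of 5 cytosolic peptidases tested, Lap3, leucine aminopeptidase, was upregulated (2.16, SE 0.27).

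Of 13 regulators tested, 3 were upregulated, against 9.5% of all genes tested. They were Stat2 (3.12) and Irf9 (1.98), parts of the interferon-activated complex that binds ISRE, and Nfkb1 (2.27), an NF-κB subunit. Stat2 had 3.23 and 12.4 FPKM in the Control libraries, 47.5 and 87.1 in the Model libraries and 66.6 and 79.7 in the MUS libraries. Irf1, an interferon-responsive activator of class I genes, had 8.66 and 49.7 FPKM in the Control libraries, 133 and 87.3 in the Model libraries and 85.3 and 90.7 in the MUS libraries. Its Control libraries were far apart, and its difference of 2.30 (SE 0.71) had a limma adjusted p of 0.0681. The subunits tested of the complex that binds the SXY module of class I promoters, Rfx5 (0.35), Rfxap (-0.09), Nfya (0.07), Nfyb (0.70), Nfyc (-0.36) and Creb1 (0.03), were not called. Rfxank, another subunit of that complex, was below the filter, at 0.233 to 1.25 FPKM. Ciita, the transactivator of class II genes, was below the filter too, at 0.118 to 1.76 FPKM.

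**Figure D4:**
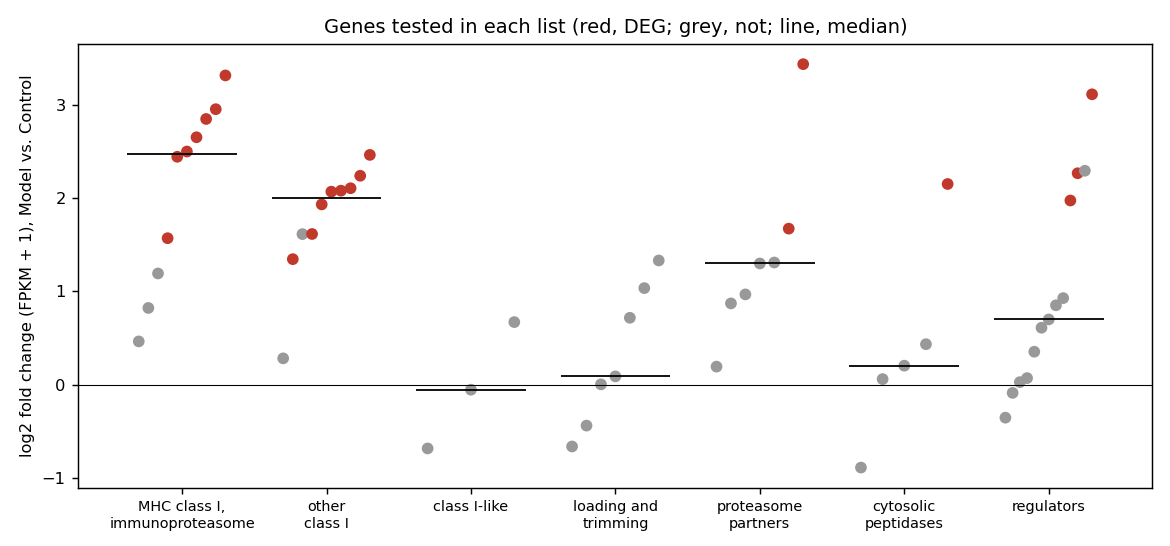
Log2 fold change in Model vs. Control (vertical axis) of each gene tested, by list, sorted from left to right within a list, red for DEGs and grey for the rest, with the median of the list as a line. The 10 genes of class I presentation and the immunoproteasome (median 2.48) and the other class I genes (median 2.00) lie mostly high. The loading and trimming genes (median 0.09) lie on both sides of 0, from -0.67 (Pdia3) to 1.33 (Tapbpl).

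In MUS vs. Model, 0 of the 45 genes were DEGs with limma, 23 were below 0 and 22 above, and the median was -0.02. The largest differences were those of Rela (-1.23, limma adjusted p = 0.463), the p65 subunit of NF-κB, H2-Q1 (-1.20) and H2-T23 (-0.87). Rela had 34.4 and 58.3 FPKM in the Control libraries, 98.1 and 68.0 in the Model libraries and 28.0 and 41.7 in the MUS libraries, and its MUS libraries were below both Model libraries. In MUS vs. Control 12 of the 45 were DEGs, all upregulated, against 11.3% of all genes tested. They ran from Stat2 (3.30) and Psme2 (2.91, with a limma adjusted p of 0.0143) to Hspa5 (1.22), the chaperone BiP. The others were Nfkb1 (2.60), H2-T22 (2.52), H2-T24 (2.32), Lap3 (2.26), Irf9 (1.96), Psme1 (1.93), H2-Q6 (1.84), H2-Q4 (1.76) and H2-T10 (1.73). H2-M2 (2.28), Irf1 (2.01) and H2-Q7 (1.50) had the largest values among those not called.

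The spread between the libraries of a group had a pattern of its own. In Control, replicate 2 was above replicate 1 for 9 of the 10 genes, with a median difference of 1.06 on the log2 scale, whereas 53.2% of all genes tested were higher in replicate 2 and their median difference was 0.04. H2-D1 was the exception. The regulators tested went in both directions. Irf1 and Stat2, at the values given above, and Nfkb1 (7.86 and 30.4 FPKM) were higher in Control replicate 2. Irf8 (14.8 and 7.51 FPKM) and Nfyc (7.18 and 5.41 FPKM) were lower in it. Without Control replicate 1 only 4 of the 10 were called in Model vs. Control, and without Control replicate 2 there were 8, while the DEGs among all genes tested went from 1475 to 763 and 2077.

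Gene length moved with these differences. In Model, replicate 2 was below replicate 1 for the shortest genes and above it for the longest, Tap1 and Nlrc5, from B2m with a gene length of 860 bases (0.56 times) to Nlrc5 with 8493 bases (2.31 times). Across the 10 genes, Spearman's rho between gene length and the difference of the replicates was 0.82 in Model, 0.75 in Control and 0.39 in MUS. Across all 9794 genes tested it was 0.40, 0.12 and -0.07. These are descriptions across genes that share the same libraries. With a gene-length correction of each library, chosen after the data were seen, the DEGs among the 10 numbered 7 for Model vs. Control, 0 for MUS vs. Model and 5 for MUS vs. Control, as they did without it.

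**Figure D5:**
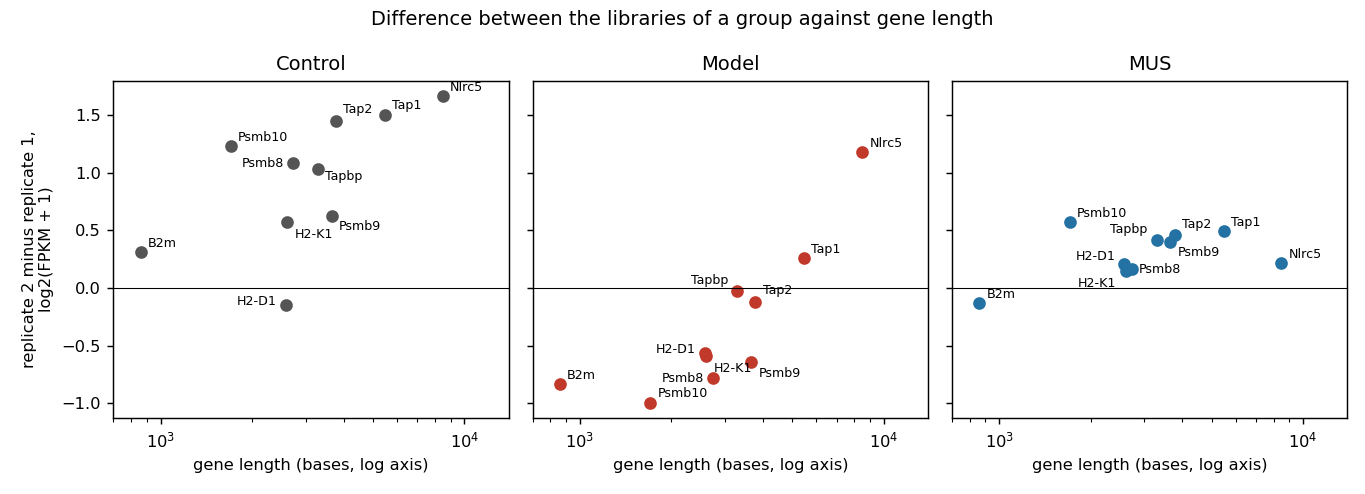
Difference of replicate 2 minus replicate 1 in log2(FPKM + 1) (vertical axis) against gene length in bases (horizontal log axis) for the 10 genes, with a panel for each group. In Model the points run from B2m and Psmb10 below 0 to Nlrc5 above 1, in Control all but H2-D1 lie above 0, and in MUS all but B2m do.

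The genes most like the 10 were sought as those with the smallest root mean square distance from the median profile of the 10 genes over the 6 libraries, on centred log2(FPKM + 1). The 5 closest genes were Gadd45b (distance 0.0965), Myd88 (0.1002), H2-Q4 (0.123), Ly6e (0.128) and Csf1 (0.161). All 5 were closer than any of the 10 genes themselves, but they were picked for closeness among all other genes tested. Of the 10, Psmb9 (0.214) and Tap2 (0.267) were the nearest and H2-D1 (0.845) and Nlrc5 (0.872) the farthest. Myd88, an adaptor of Toll-like receptors, had 13.1 and 28.2 FPKM in the Control libraries, 107.6 and 79.6 in the Model libraries and 51.5 and 60.9 in the MUS libraries. Gadd45b, a stress-induced gene, had 71.0 and 133 FPKM in the Control libraries, 487 and 353 in the Model libraries and 277 and 360.5 in the MUS libraries. Higher Model than MUS means and a higher Control replicate 2 in both genes follow from their choice by that profile and are no separate result.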

How the data were processed

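The authors deposited 1 table of FPKM per gene and library, which the paper's methods ascribe to RSEM. The submitters' processing notes name HISAT2, featureCounts 1.5.0-p3 and GRCm39. Gene positions matched GENCODE M21 on GRCm38 for 98.3% of the genes compared, so GRCm38 positions are given as the table has them. Of the 10 genes, 7 matched, and H2-K1, Tapbp and Psmb9 differed by at most 14 bases at one end. FPKM times gene length gave whole fragments for 100% of values (tolerance 0.1 of a fragment), so depth could be recovered. It covers counting error only, and 3 fragments on a gene of 1 kb equal 0.131 to 0.213 FPKM. Every one of the 6 columns belongs to a sample.

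Values were analysed as log2(FPKM + 1) with limma 3.58.1 (R 4.3.3), with a mean-variance trend, 3 groups in one model and a minimum mean FPKM of 1 per gene. Adjustment of p-values over all genes tested was by Benjamini-Hochberg. The count model of the study was not used. The main test was on the deposited FPKM, and voom on the recovered fragments was an alternative. Ratios were compared in Python 3.11.15 with SciPy 1.17.1. Labels give the replicate number as batch. Deviations of equal replicate numbers correlated at 0.12 (Control and Model), 0.14 (Model and MUS) and -0.09 (Control and MUS), and the block was an alternative.

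The 10 genes and the lists were chosen with earlier results of these data known. Genes of the lists are named when they are DEGs, and otherwise the 3 with the largest differences per comparison. Members of complexes named beyond that were chosen after their values were seen. A gene of the lists and a promoter motif were left out and are not reported here.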

Additional observations from a re-analysis of the deposited data

How the results depend on the processing

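The alternatives were run for all 3 comparisons. In Model vs. Control, 1475 DEGs became 260 with no filter on low values, where more genes are tested, 2361 with rescaling without mitochondrial genes and the 20 highest genes, 797 with only the 2 groups compared, and 692 to 2077 with 1 library left out. The split of upregulated and downregulated DEGs, 930 and 545, became 646 and 1554 with fragment-total scaling, 585 and 1776 with that rescaling, and 707 and 715 with quantile normalization. Of the 10 genes, 7 were DEGs, against 0 with no filter and 4 to 8 with 1 library left out, where 4 were left without Control replicate 1, without Model replicate 1 and without Model replicate 2. In MUS vs. Model, 0 DEGs over all genes became 1 with a pseudocount of 0.1, 7 with only the 2 groups, 4 with the replicate block, 1 with the gene-length correction (0 with correction and replicate block, both added after seeing the data), and 0 to 31 with 1 library left out (31 without Model replicate 2), none of them among the 10 genes. In MUS vs. Control, 1980 DEGs became 456 with no filter and 184 to 2398 with 1 library left out, and the 5 DEGs of the 10 became 0 with no filter and 0 to 7 with 1 library left out, 0 without either MUS replicate. With the replicate block the counts for the 10 genes were 7, 0 and 5, and the pairing of replicates changed no call among them. H2-D1 changed sign in Model vs. Control with rescaling (-0.17), fragment-total scaling (-0.084) and quantile normalization (-0.29), and in MUS vs. Control with the same (-0.47, -0.46 and -0.43) and without MUS replicate 2 (-0.027, against 0.18 without MUS replicate 1). In MUS vs. Control, B2m changed sign with rescaling (-0.14) and fragment-total scaling (-0.13), and H2-K1 (-0.20) and Tapbp (-0.041) with quantile normalization. In MUS vs. Model, B2m (0.00059), Psmb8 (0.043) and Nlrc5 (-0.12) changed sign without Model replicate 1, and without Model replicate 2 they were at -0.83, -0.74 and 1.06. The cause of these changes was not tested. Tap1, Psmb8 and Psmb9 were DEGs in Model vs. Control under 17 of 18 alternatives, Tap2 and Nlrc5 under 15, Psmb10 under 11, Tapbp under 8 and H2-K1 under 2.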
